A study of Mus musculus with 16 samples.

Results

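Microglia carry a small set of ion channels that set their membrane potential and the movement of potassium, protons, and calcium across their membrane. Two-pore potassium channels hold the resting potential and the ramified, surveying shape of the cell, inward rectifier, calcium-activated, and voltage-gated potassium channels come into play when the cell is stimulated, and the proton channel removes the acid and charge that the NADPH oxidase leaves behind. TRP cation channels let calcium and sodium in, and the potassium that leaves the cell is a known trigger of the NLRP3 inflammasome. The expression of 9 such genes was examined in CD11b+ cells of mouse brain. They were chosen by name, all 9 were found among the 24421 rows of the deposited gene counts, and all 9 passed the filter that left 14565 genes to test (more than 10 counts in at least 4 libraries). They are the two-pore channel genes Kcnk13 and Kcnk6, the inward rectifier gene Kcnj2, the calcium-activated channel gene Kcnn4, the voltage-gated channel genes Kcna3 and Kcna5, the proton channel gene Hvcn1, and the TRP channel genes Trpv2 and Trpm2.

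RNA-Seq had been run on 16 libraries from female C57BL/6J mice studied from weaning. CON mice (4 libraries) ate standard chow, MAL mice (5 libraries) ate a diet low in protein and fat but equal in calories for 1 month, and MAL-BG mice (7 libraries) ate that diet and were also gavaged with a mix of E. coli and Bacteroidales, while the other mice were gavaged with buffered saline. Cells were enriched with magnetic beads against CD11b, a surface protein that microglia share with other myeloid cells such as neutrophils and monocytes, from tissue that the labels call cortical and the methods call whole cerebra. No group received the bacteria on the standard diet, so MAL-BG differs from CON by diet and bacteria together, which cannot be told apart. By design, MAL-BG differs from MAL by the bacteria. The study's model held a batch term, and whether batches also differed between the groups could not be checked. The labels do not tie a library to a single mouse or a batch, so p-values measure the spread between these libraries. Libraries are named here by group and running number, as in CON 1.

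Totals ranged from 10312703 to 13461574 counts in CON, from 10864121 to 12819982 in MAL, and from 14191791 to 18705202 in MAL-BG. Levels are given per 1000000 counts (CPM) after scaling library sizes with the TMM method. The summed CPM of 16 microglia markers was 30032 to 45713 in CON, 29334 to 48026 in MAL, and 57566 to 82401 in MAL-BG, so the defining markers of the labelled cells were abundant in every library and higher in all 7 MAL-BG libraries (12 of the 16 called higher and 0 lower against CON). The summed CPM of 9 choroid plexus markers ran the other way, at 10713 to 41278, 4992 to 32515, and 1472 to 13132. Markers of other myeloid cells moved too. Of 13 tested neutrophil markers, 11 were called higher and 0 lower against both CON and MAL (median log2 fold changes 4.21 and 3.95). Their summed CPM overlapped, at 494 to 1235 in CON, 524 to 1106 in MAL, and 602 to 14284 in MAL-BG. Of 10 monocyte markers, 5 were called lower against CON and 6 against MAL, and 0 higher. CON 1 and MAL 4 had the lowest choroid plexus and neuron marker sums of their groups, and they were also the highest of their groups for 8 and 5 of the 9 channel genes. MAL-BG 3 had the lowest microglia and highest choroid plexus sum of its group and was lowest for 4 channel genes. In such bulk samples, more cells of a type and more RNA per cell cannot be told apart, and the part of the cell make-up in the results below was not tested.

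Upstream sequence is shown for the 4 genes that were higher in MAL-BG against CON and for Kcna3, the 1 gene that was lower, because these are the members that moved. The sequences are the 250 bases before the RefSeq start of each gene (GRCm38.p6), printed 5′ to 3′ on the gene's own strand, which is the plus strand for all 5 genes. They lie at chr12:99964249-99964498 for Kcnk13, chr11:111065914-111066163 for Kcnj2, chr7:24370013-24370262 for Kcnn4, chr11:62574236-62574485 for Trpv2 (the first of 3 listed starts), and chr3:107035912-107036161 for Kcna3. Capitals mark GAGGAA on either strand, the core that the myeloid factor PU.1 binds.
Kcnk13: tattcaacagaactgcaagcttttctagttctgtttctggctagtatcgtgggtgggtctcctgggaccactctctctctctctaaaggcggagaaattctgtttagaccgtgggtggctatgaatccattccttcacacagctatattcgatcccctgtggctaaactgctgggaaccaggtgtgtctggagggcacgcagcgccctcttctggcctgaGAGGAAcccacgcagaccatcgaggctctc
Kcnj2: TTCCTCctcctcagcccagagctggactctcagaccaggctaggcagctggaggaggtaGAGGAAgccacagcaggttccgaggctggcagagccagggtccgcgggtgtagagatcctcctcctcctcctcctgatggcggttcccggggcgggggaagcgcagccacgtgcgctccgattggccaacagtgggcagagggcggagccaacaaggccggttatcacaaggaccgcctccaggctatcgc
Kcnn4: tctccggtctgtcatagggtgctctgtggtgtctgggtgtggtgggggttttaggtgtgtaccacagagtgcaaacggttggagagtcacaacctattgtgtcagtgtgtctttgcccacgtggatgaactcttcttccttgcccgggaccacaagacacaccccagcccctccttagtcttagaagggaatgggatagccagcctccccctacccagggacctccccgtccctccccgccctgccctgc
Trpv2: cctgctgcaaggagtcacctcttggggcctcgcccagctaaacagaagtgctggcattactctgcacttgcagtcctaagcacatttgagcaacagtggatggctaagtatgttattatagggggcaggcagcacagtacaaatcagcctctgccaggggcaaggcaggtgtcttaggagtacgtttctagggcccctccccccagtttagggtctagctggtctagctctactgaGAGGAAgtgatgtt
Kcna3: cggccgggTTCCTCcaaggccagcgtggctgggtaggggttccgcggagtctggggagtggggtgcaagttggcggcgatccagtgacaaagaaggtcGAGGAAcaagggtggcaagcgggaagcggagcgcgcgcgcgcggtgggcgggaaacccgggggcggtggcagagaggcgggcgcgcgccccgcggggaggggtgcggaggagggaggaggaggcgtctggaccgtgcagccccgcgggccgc
The reference table held such a window for 7 of the 9 genes, with Kcnk6 and Hvcn1 not among them. GAGGAA was found in 5 of these 7 windows (Kcnk13, Kcnj2, Kcna3, Kcna5, and Trpv2) and in 23.3% of all 32851 windows of the same length. It lay 30 to 25 bases before the start in Kcnk13 and 14 to 9 bases before the start in Trpv2, while the Kcnn4 window held none. Kcna3, which fell, held 2 matches, as did Kcnj2, which rose against CON, so the match did not divide the members by direction. The AP-1 motif TGANTCA, which does not overlap GAGGAA, was found in 0 of the 7 windows and in 6.75% of all windows. The Kcna3 window had the highest values of the 7, with 74.4% G or C and 31 CpG dinucleotides, beside medians of 52.4% and 6 over all windows. Kcnj2, which rose against CON, came next with 65.6% and 14. Kcnn4 had 58.8% and 6, Trpm2 56.8% and 10, Trpv2 53.2% and 2, Kcna5 53.2% and 3, and Kcnk13 52.8% and 8.

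Levels of different genes were compared per kilobase of exon. Hvcn1 and Kcnk6 led in all 3 groups, at 41.9 ± 7.37 and 39.5 ± 11.8 CPM per kb in CON (SD, n = 4), and their libraries overlapped with each other in each group. In CON, both stood above Trpv2 (17.5 ± 5.53), and then came Kcnk13 (12.8 ± 3.25), Kcnj2 (9.68 ± 3.02), and Trpm2 (7.09 ± 4.13), each overlapping its neighbour. Kcna3 (2.41 ± 0.793), Kcnn4 (1.04 ± 0.177), and Kcna5 (1.03 ± 0.640) closed the order, the last pair overlapping. MAL had the same order. In MAL-BG, Kcnk13 reached 34.3 ± 5.76 CPM per kb (SD, n = 7) and moved ahead of Trpv2 (30.6 ± 6.11), which it overlapped, and Kcna3 moved from seventh to last at 0.149 ± 0.130, below Kcna5 (0.981 ± 0.299) with no overlap.

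**Figure D1:**
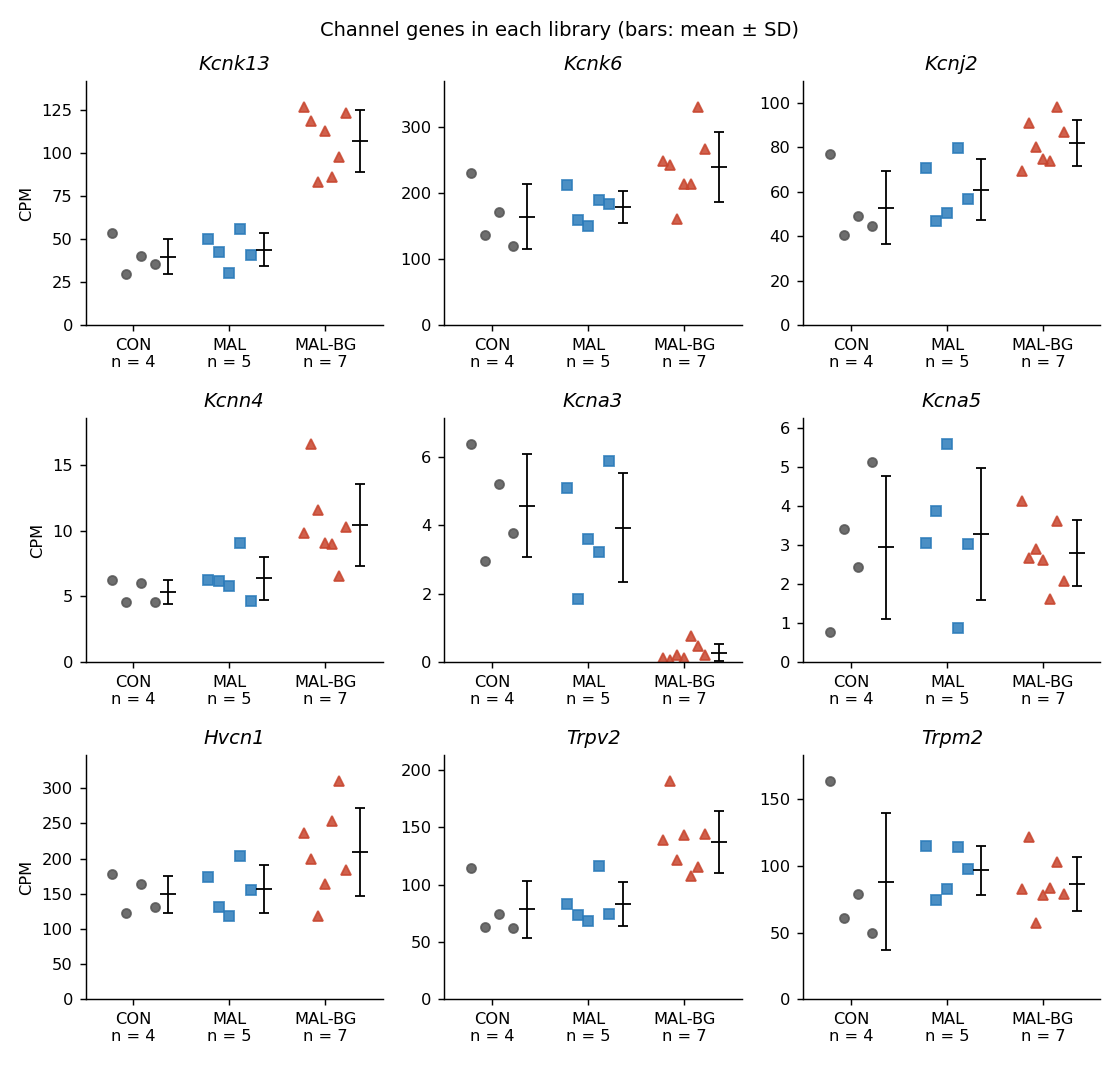
CPM of the 9 channel genes (vertical axes, each from 0) in every library of CON, MAL, and MAL-BG (horizontal axis), with the mean and SD at the right of each group. All 7 MAL-BG libraries lay above the other 9 for Kcnk13 (83.1 to 126 CPM) and below them for Kcna3 (0.0766 to 0.759 CPM), while Trpm2 and Kcna5 overlapped between all groups.

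The first question was whether malnutrition with bacterial exposure changed these genes against healthy controls. Against CON, 4 of the 9 genes rose in MAL-BG (Kcnk13, Kcnn4, Trpv2, and Kcnj2) and 1 fell (Kcna3), although scaling libraries by the microglia markers instead of TMM left none of the 4 called and turned Trpv2 and Kcnj2 to −0.02 and −0.19 on the log2 scale. A gene was called when its adjusted p was under 0.05 in edgeR's quasi-likelihood test and its log2 fold change exceeded 0.58 in either direction. Over all genes tested, 33.1% were called in this comparison, 11.4% as higher and 21.7% as lower. The median log2 fold change was 0.54 over the 9 genes and −0.04 over all genes. Libraries of both groups did not overlap for 3 of the 9 genes, Kcnk13 and Kcnn4 above and Kcna3 below, beside 9.83% of all genes above and 11.1% below. Against MAL, 3 rose (Kcnk13, Kcnn4, and Trpv2) and Kcna3 fell, with 30.4% of all genes called, 10.2% higher and 20.2% lower, and again none of the 3 was called as higher under the microglia marker scaling, where Kcnn4 and Trpv2 turned to −0.05 and −0.06. Here 2 genes did not overlap between groups, Kcnk13 above and Kcna3 below, beside 7.86% of all genes above and 8.95% below. Since the same MAL-BG libraries enter both tests, the values are not independent. Before adjustment, p was under 0.05 for 7 of the 9 genes against CON and 6 against MAL, beside 52.7% and 52.2% of all genes.

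**Figure D2:**
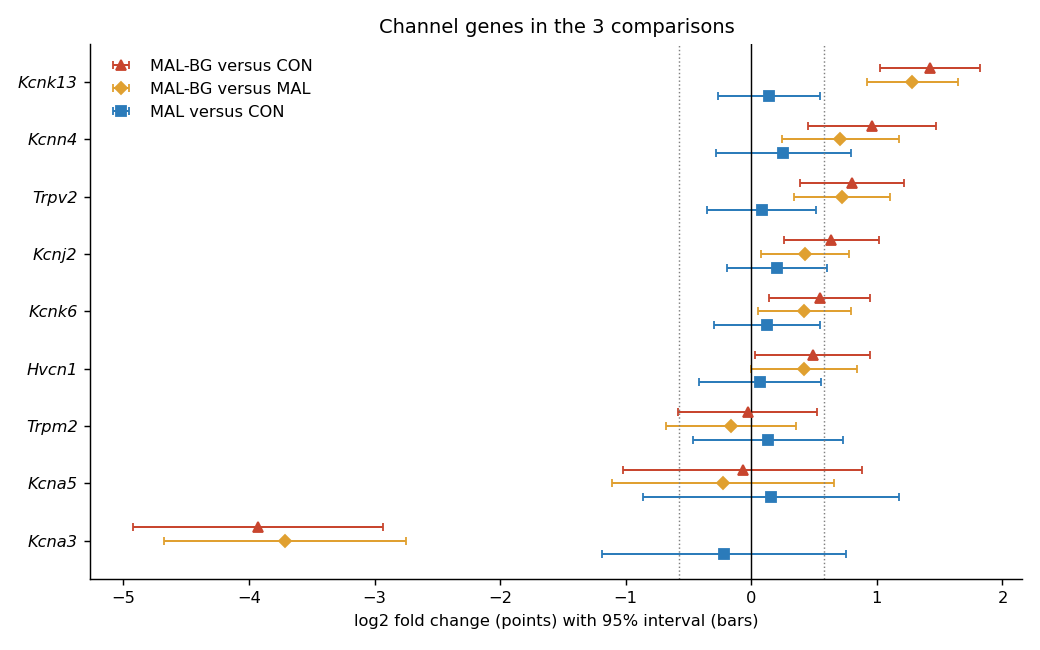
Log2 fold change of each channel gene (points) with its 95% interval (bars) in the 2 MAL-BG comparisons and in MAL versus CON, with dotted lines at the threshold of 0.58 in both directions. Kcnk13 (1.42 and 1.28) and Kcna3 (−3.93 and −3.71) lay farthest from 0 in both MAL-BG comparisons, and the intervals for MAL versus CON crossed 0 for all 9 genes. Under microglia marker scaling, Trpv2, Kcnj2, Kcnk6, and Hvcn1 lay below 0 in both MAL-BG comparisons and Kcnn4 below 0 against MAL.

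Kcnk13 encodes THIK-1, the channel that carries the resting potassium current of microglia and supports their ramified shape and ATP-driven responses. Its level was 53.6, 29.8, 40.1, and 35.7 CPM in the CON libraries. The MAL libraries held 50.1, 42.2, 30.1, 56.0, and 40.9 CPM, and the MAL-BG libraries ran from 83.1 through a median of 113 to 126 CPM. All 7 MAL-BG libraries were thus above all 9 others, as was the case for 6.17% of all genes tested. Kcnk13 rose 2.68-fold against CON (95% interval 2.03 to 3.53, log2 fold change 1.42 ± 0.19 SE, adjusted p = 4.93e-05, edgeR) and 2.43-fold against MAL (log2 fold change 1.28 ± 0.17 SE, adjusted p = 5.29e-05, edgeR). It lies on chromosome 12 (99964499 to 100062682, plus strand, GRCm38).

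Because microglia markers rose in the same libraries, Kcnk13 was also read against them. Per 10000 CPM of the 16 microglia markers, Kcnk13 stood at 8.98 to 11.9 CPM in CON, 10.3 to 12.8 in MAL, and 13.4 to 16.4 in MAL-BG, and the MAL-BG libraries did not overlap the others. The share of all genes that separate on this measure was not counted, so the separation does not set Kcnk13 apart from other genes. When libraries were scaled by these markers, the log2 fold change was 0.56 against CON (adjusted p = 9.82e-04, edgeR) and 0.49 against MAL (adjusted p = 0.00165, edgeR), positive but short of 0.58. This scaling moves the median of all genes to −0.92 and −0.84. Relative to the median gene, Kcnk13 was 1.46 higher against CON under TMM and 1.48 higher under the marker scaling. A new scaling shifts all genes by nearly the same amount, so this difference could hardly change and does not test the rise.

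Kcnk6 encodes TWIK-2, a two-pore channel described as a route of potassium efflux in macrophages. It was measured at 230, 136, 171, and 119 CPM in CON and at 212, 160, 150, 189, and 183 CPM in MAL, and from 161 through a median of 242 to 330 CPM in MAL-BG. The highest CON library lay within the MAL-BG range. The log2 fold change of 0.54 ± 0.19 SE against CON had an adjusted p of 0.0279 (edgeR) but stayed under the fold threshold, and that against MAL was 0.42 ± 0.18 SE (adjusted p = 0.0608). Kcnk6 was called when CON 1 was left out (0.74) and also when MAL-BG 2, 3, or 4 was left out (0.60, 0.62, and 0.62), and it turned to −0.31 and −0.40 under microglia marker scaling. Per 10000 CPM of microglia markers, it was 43.6 ± 4.72 CPM in CON (SD, n = 4), 48.0 ± 5.58 in MAL (n = 5), and 33.8 ± 6.81 in MAL-BG (n = 7). The gene lies on chromosome 7 (29221926 to 29232515, minus strand).

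The balance between both two-pore channels restates the separate changes of Kcnk13 and Kcnk6 from the same counts. How often other gene pairs shifted as much was not tested. For each Kcnk13 count there were 4.12 ± 0.534 of Kcnk6 in CON (SD, n = 4), 4.17 ± 0.614 in MAL (n = 5), and 2.27 ± 0.533 in MAL-BG (n = 7), a ratio that no library scaling can change. The range was 3.34 to 4.57 in CON, 3.38 to 4.97 in MAL, and 1.89 to 3.39 in MAL-BG, where 6 libraries lay at or below 2.49 and MAL-BG 6 alone reached into the range of the other groups. The ratio was lower by 1.85 than in CON (p = 0.0121, adjusted p = 0.0182) and by 1.90 than in MAL (p = 0.00505, adjusted p = 0.0152) in two-sided exact permutation tests, adjusted over the 3 comparisons, and MAL and CON did not differ beyond their spread (adjusted p = 0.937, exact permutation test). The related gene Kcnk12, which encodes the silent partner THIK-2, had a log2 fold change of 0.87 ± 0.19 SE against MAL (adjusted p = 0.0019, edgeR) and 0.47 ± 0.20 SE against CON (adjusted p = 0.0694). Kcnk12 was not called in either comparison under microglia marker scaling, at 0.03 against MAL (adjusted p = 0.866, edgeR) and −0.40 against CON.

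Kcnj2 encodes Kir2.1, the inward rectifier that microglia show in culture and after injury. Levels were 76.8, 40.4, 49.1, and 44.6 CPM in CON and 70.6, 47.0, 50.6, 79.5, and 56.9 CPM in MAL. In MAL-BG they ran from 69.4 through a median of 80.2 to 98.0 CPM, so that 4 of 7 libraries lay above all CON libraries. The log2 fold change was 0.64 ± 0.18 SE against CON (adjusted p = 0.00873, edgeR) and 0.43 ± 0.17 SE against MAL (adjusted p = 0.0444), the latter under the fold threshold. The call against CON was lost, by the fold threshold, without CON 2 (0.52) and without CON 4 (0.56). Kcnj2 lies on chromosome 11 (111066164 to 111076821, plus strand).

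Kcnn4 encodes KCa3.1, the calcium-activated channel that sustains calcium entry in activated microglia. It lies on chromosome 7 (24370263 to 24386690, plus strand). It was a low gene, at 6.22, 4.55, 5.99, and 4.54 CPM in CON and 6.21, 6.19, 5.76, 9.03, and 4.62 CPM in MAL, with 49 to 112 counts behind each value. MAL-BG libraries held 6.54 to 16.5 CPM with a median of 9.85. All 7 lay above CON, and 5 of 7 lay above MAL. Kcnn4 rose 1.95-fold against CON (log2 fold change 0.96 ± 0.24 SE, adjusted p = 0.00431, edgeR) and 1.63-fold against MAL (0.71 ± 0.22 SE, adjusted p = 0.0161), but its level per 10000 CPM of microglia markers was 1.44 ± 0.0851 in CON (SD, n = 4), 1.70 ± 0.296 in MAL (n = 5), and 1.49 ± 0.481 in MAL-BG (n = 7).

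Kcna3 encodes Kv1.3, the delayed rectifier associated with activated microglia and effector T cells, and it was the 1 member that fell. It lies on chromosome 3 (107036169 to 107038070, plus strand), in 1 exon. CON libraries held 83, 32, 66, and 50 counts of it and MAL libraries 60, 25, 42, 40, and 74. The MAL-BG libraries held 2, 1, 3, 2, 14, 8, and 3. In CPM this was 2.97 to 6.37 in CON, 1.86 to 5.89 in MAL, and 0.0766 to 0.759 in MAL-BG, with no overlap on either side, as was the case below for 6.36% of all genes tested. The gene was 15.3-fold lower than in CON (95% interval 7.65 to 30.4, log2 fold change −3.93 ± 0.47 SE, adjusted p = 2.12e-05, edgeR) and 13.1-fold lower than in MAL (log2 fold change −3.71 ± 0.46 SE, adjusted p = 2.72e-05, edgeR). Kcna3 passed the filter through its CON and MAL libraries, since 1 MAL-BG library had more than 10 counts.

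Pooled over the 7 MAL-BG libraries, 33 Kcna3 counts gave 0.287 CPM of the unscaled totals (95% Poisson interval 0.198 to 0.403, counting error only), beside 4.82 CPM (4.22 to 5.48) in CON. MAL-BG 5, with the 14 counts, was also the library with the highest neutrophil marker sum (14284 CPM, beside 602 to 3453 in the other MAL-BG libraries). Without it, or without any other library, the log2 fold change against CON stayed between −4.42 and −3.73. Lymphocyte markers rose in the same libraries (5 of 9 tested markers called higher and 0 lower against CON, summed 108 to 233 CPM in MAL-BG and 48.1 to 76.3 in CON), whereas neuron markers fell (9 of 10, 15.2 to 66.1 CPM in MAL-BG and 42.7 to 225 in CON). The part of these cells was not tested. The other Kv1 genes that could be tested, chosen after their values were seen, changed less against CON, with Kcna2 at −1.45 ± 0.42 SE and Kcna7 at −1.31 ± 0.43 SE (adjusted p = 0.0098 and 0.0215, edgeR), Kcna1 at −0.51 ± 0.35 SE (adjusted p = 0.25), and Kcna6 at −0.09 ± 0.40 SE (adjusted p = 0.878). Kcna7, like Kcna3, passed the filter only through CON and MAL libraries. Differences between these genes were not tested.

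Kcna5 encodes Kv1.5, another delayed rectifier, and like Kcna3 it has 1 annotated exon (chromosome 6, 126532551 to 126535412, minus strand). It was found at 0.768, 3.43, 2.44, and 5.15 CPM in CON, 3.06, 3.88, 5.59, 0.886, and 3.03 CPM in MAL, and 1.63 to 4.13 CPM in MAL-BG with a median of 2.68. CON 1 and MAL 4, the libraries with the fewest choroid plexus and neuron transcripts, had the lowest Kcna5 of their groups. No difference was called under TMM scaling, with a log2 fold change of −0.07 against CON (95% interval −1.02 to 0.88, adjusted p = 0.913, edgeR) and −0.23 against MAL (95% interval −1.11 to 0.66, adjusted p = 0.681). With microglia marker scaling Kcna5 was called as lower against MAL (−1.16, adjusted p = 0.0464, edgeR) and not against CON (−1.09, adjusted p = 0.0723). For each Kcna5 count there were 0.735 to 8.30 counts of Kcna3 in CON, 0.481 to 3.64 in MAL, and 0.0286 to 0.467 in MAL-BG.

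Hvcn1 encodes the voltage-gated proton channel Hv1, which is found in microglia and supports the respiratory burst. It lies on chromosome 5 (122206804 to 122242297, plus strand). Levels were 179, 123, 163, and 131 CPM in CON, 174, 131, 119, 204, and 156 CPM in MAL, and from 119 through a median of 200 to 310 CPM in MAL-BG, the widest spread of the 3 groups. The log2 fold change was 0.49 ± 0.22 SE against CON (adjusted p = 0.0762, edgeR) and 0.42 ± 0.20 SE against MAL (adjusted p = 0.1), so no change was called. It passed the threshold against CON without MAL-BG 3 (0.59, adjusted p = 0.0199), the library with the lowest microglia marker sum of the group. The antisense neighbour Tctn1 shares 1574 exon bases with Hvcn1, and the strand setting of the counting is not given in the sources used here.

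Trpv2 encodes a cation channel of macrophages and microglia that opens to heat, stretch, and cannabinoids. It lies on chromosome 11 (62574486 to 62600515, plus strand). CON libraries held 115, 63.2, 74.6, and 62.0 CPM, and MAL libraries 82.7, 73.9, 68.7, 117, and 74.5 CPM. MAL-BG libraries ran from 107 through a median of 139 to 190 CPM, with 6 of 7 above all CON libraries and 5 of 7 above all MAL libraries. Trpv2 rose 1.74-fold against CON (log2 fold change 0.80 ± 0.20 SE, adjusted p = 0.00372, edgeR) and 1.65-fold against MAL (0.72 ± 0.18 SE, adjusted p = 0.0046). Per 10000 CPM of microglia markers, it was 20.9 ± 2.92 CPM in CON (SD, n = 4), 22.1 ± 1.78 in MAL (n = 5), and 19.4 ± 3.48 in MAL-BG (n = 7).

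Trpm2 encodes a calcium-permeable channel opened by ADP-ribose and oxidative stress. It lies on chromosome 10 (77907722 to 77970563, minus strand), and 2 snoRNA genes share 47 and 44 of its exon bases on the same strand. It was measured at 163, 60.9, 79.0, and 49.9 CPM in CON, where CON 1 stood far above the rest, at 115, 74.2, 82.5, 114, and 97.7 CPM in MAL, and from 57.4 through a median of 82.6 to 122 CPM in MAL-BG. The groups overlapped. Trpm2 differed by −0.03 on the log2 scale against CON (95% interval −0.59 to 0.53, adjusted p = 0.935, edgeR) and −0.16 against MAL (95% interval −0.68 to 0.36, adjusted p = 0.612). Without CON 1 the former became 0.44 (adjusted p = 0.096). Per 10000 CPM of microglia markers, Trpm2 stood at 16.6 to 35.7 CPM in CON, 21.8 to 29.5 in MAL, and 9.75 to 16.8 in MAL-BG. Under microglia marker scaling Trpm2 was called as lower against both CON (−0.82, adjusted p = 0.00126, edgeR) and MAL (−0.96, adjusted p = 2.18e-04, edgeR). Relative to the median gene, the difference of Trpm2 against CON was near 0 under TMM (0.01) and under the marker scaling (0.10). Since scaling shifts all genes by nearly the same amount, the closeness of these values tests neither result.

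**Figure D3:**
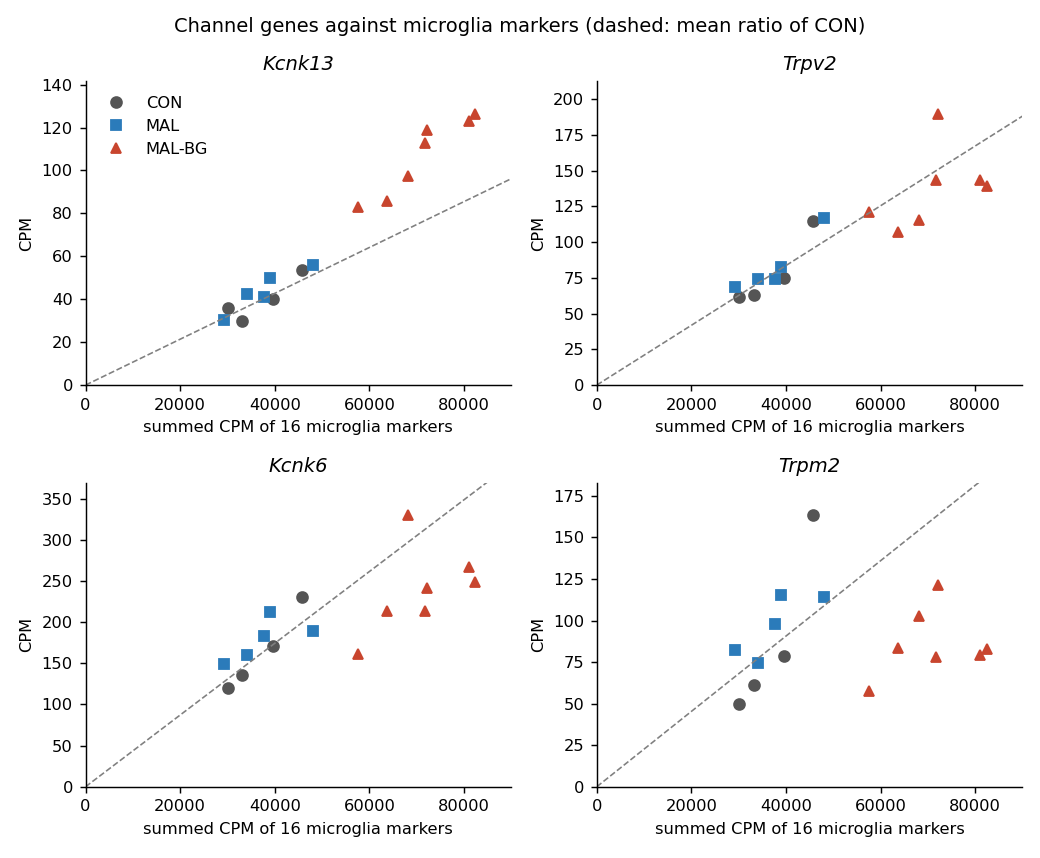
CPM of Kcnk13, Trpv2, Kcnk6, and Trpm2 (vertical axes) against the summed CPM of 16 microglia markers (horizontal axes), 1 point per library, with a dashed line at the mean ratio of the CON libraries. The 7 MAL-BG libraries lay above the line for Kcnk13 (13.4 to 16.4 CPM per 10000 marker CPM, beside 8.98 to 11.9 in CON) and below it for Trpm2 (9.75 to 16.8, beside 16.6 to 35.7). For Kcnk6, MAL-BG 6 alone lay above the line (48.4, beside a CON mean of 43.6). For Trpv2, MAL-BG 2 and MAL-BG 3 lay above it (26.3 and 21.1, beside a CON mean of 20.9) and the others below.

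The direction of several members depended on how libraries were scaled. Scaling by the mean log2 CPM of all genes raised the median of all genes to 0.25 against CON and 0.24 against MAL, and it moved the share of called genes that were higher from 34.4% to 61.4% against CON and from 33.4% to 62.1% against MAL. Under it, Kcnk6 and Hvcn1 joined the higher genes in both MAL-BG comparisons and Kcnj2 did so against MAL, while under microglia marker scaling no member was called as higher and Trpm2 (in both comparisons) and Kcna5 (against MAL) joined Kcna3 among the lower genes. Kcna3 was called as lower under each of the 30 alternatives tried, in both MAL-BG comparisons. These alternatives reuse the same counts, and Kcna3 passed the count filter only through CON and MAL libraries. Passing in this way favours genes that are lower in MAL-BG. With no filter on low counts, its values were −3.92 against CON and −3.70 against MAL. Kcnk13 was called as higher under all 30 alternatives except the microglia marker scaling.

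**Figure D4:**
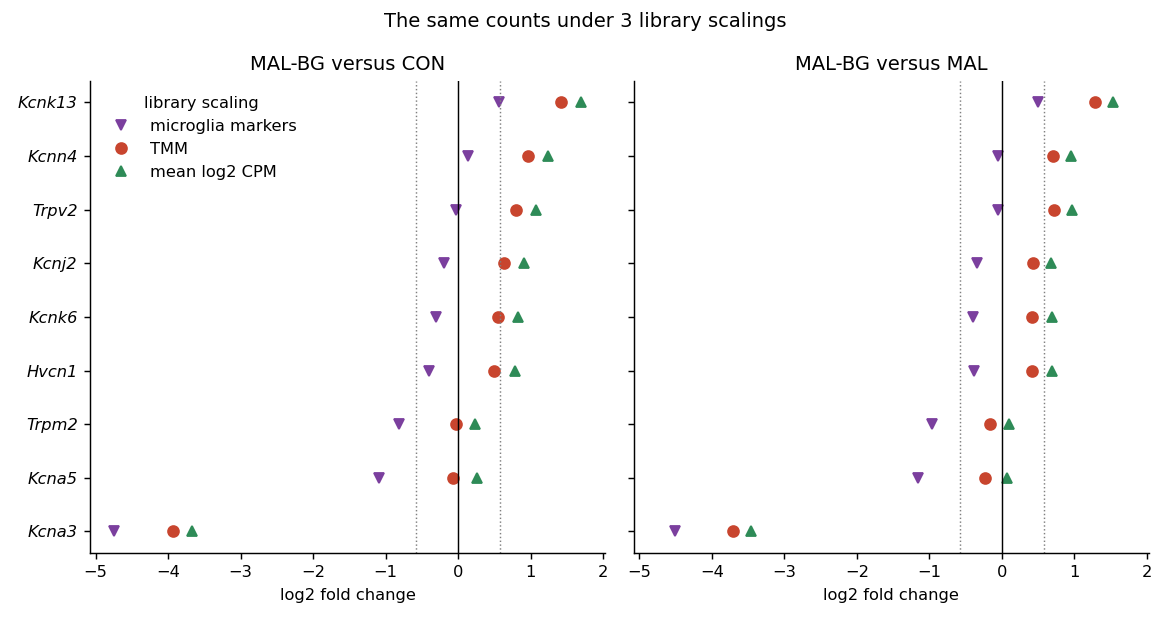
Log2 fold change of each channel gene (horizontal axes) in MAL-BG versus CON (left) and versus MAL (right) under 3 scalings of the same counts, with dotted lines at 0.58 in both directions. Kcnk13 stayed above 0 (0.56 to 1.70 against CON) and Kcna3 below 0 (−4.75 to −3.66), whereas Trpv2, Kcnj2, Kcnk6, and Hvcn1, Kcna5, and Trpm2 changed sign in both panels and Kcnn4 did against MAL.

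The second question was whether the diet alone changed these genes. In MAL versus CON, 0 of the 9 genes were called and 0 had an unadjusted p under 0.05, and 0% of all genes were called by edgeR (212 of 14565 had an unadjusted p under 0.05, 1.46%). DESeq2 also called 0 genes. The log2 fold changes of the members lay between −0.22 (Kcna3) and 0.26 (Kcnn4), 8 of 9 above 0, and the adjusted p was 0.999 for each in edgeR. The narrowest interval, that of Kcnj2, ran from −0.19 to 0.61 and the widest, that of Kcna5, from −0.86 to 1.18. All members overlapped between the groups, beside 0.412% of all genes that lay wholly above and 0.302% wholly below.

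The 6 potassium channel genes were next set among all 77 rows of potassium channel pore genes. Together these 77 genes took 762 ± 88.6 CPM in CON (SD, n = 4), 716 ± 81.9 in MAL (n = 5), and 732 ± 71.9 in MAL-BG (n = 7), with overlapping libraries. Within it, the 6 members held 60.3 ± 6.79% of the counts in MAL-BG, beside 35.9 ± 11.8% in CON and 42.5 ± 11.2% in MAL. The ranges were 24.7 to 52.3%, 32.3 to 56.9%, and 48.6 to 70.1%, and CON 1, MAL 1, and MAL 4 reached into the MAL-BG range. Kcnk13 alone took 5.33 ± 1.69%, 6.31 ± 2.14%, and 14.6 ± 1.87%, and its share did not overlap between MAL-BG (11.9 to 17.4%) and the other groups (3.38 to 9.43%). How many other pore genes separated by their share was not counted, so this does not set Kcnk13 apart from them. Kcna3 took 0.615 ± 0.231%, 0.558 ± 0.223%, and 0.0413 ± 0.0412%. The non-member pore genes ranked highest in CON were Kcnj13, Kcnd1, and Kcnk1. Kcnj13 went from 133.5 CPM in CON and 99.7 in MAL to 23.1 in MAL-BG, and Kcnk1 from 57.1 and 45.4 to 8.52. Kcnd1 went the other way, from 59.1 and 62.7 to 133 CPM. The shares of the members thus also reflect falls of other genes, and the part of cell make-up was not tested.

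**Figure D5:**
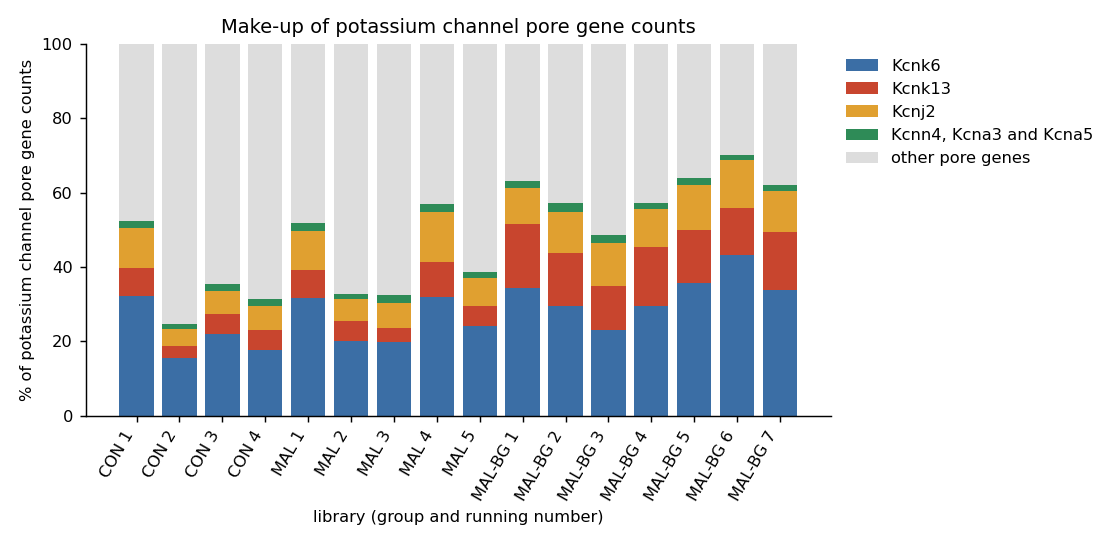
Share of all counts of 77 potassium channel pore genes (vertical axis, percent) that fell on Kcnk6, Kcnk13, Kcnj2, and the sum of Kcnn4, Kcna3, and Kcna5 in each library (horizontal axis), with the other pore genes in grey. The coloured part was 24.7 to 52.3% in CON, 32.3 to 56.9% in MAL, and 48.6 to 70.1% in MAL-BG.

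Of the 71 other pore genes, 41 could be tested. Of these, 13 passed the filter only through CON and MAL libraries, as no more than 3 MAL-BG libraries had over 10 counts, and 0 passed only through MAL-BG. Passing in this way favours genes that are lower in MAL-BG, so the counts of falls describe the tested genes and are no support for a change of the whole list. Against CON, 1 rose, 25 fell (all 13 of these genes among them), and 15 were not called, and against MAL 4 rose and 25 fell. Under microglia marker scaling 0 rose and 33 fell against CON, and under mean log2 CPM scaling 3 rose and 20 fell. Kcnd1, which encodes the A-type channel Kv4.1, was the 1 that rose against CON (1.17 ± 0.29 SE, adjusted p = 0.0036, edgeR), from 59.1 to 133 CPM, or 0.38 and not called under microglia marker scaling. Kcnd3 and Kcnc4, which encode the neuronal channels Kv4.3 and Kv3.4, fell by 2.80 and 3.22 on the log2 scale. Kcnc4 is 1 of the 13 genes that passed only through CON and MAL libraries. Of 12 tested potassium channel auxiliary genes, 0 rose and 8 fell against CON, among them Kcnip2 (−2.97) and Kcnmb4 (−3.40). Of the 8, 4 had passed the filter only through CON and MAL libraries, and Kcnip2 and Kcnmb4 are both among these 4. Of 13 other TRP channel genes tested, 0 rose and 6 fell against CON, including Trpm7 (−1.20), from 91.1 to 39.7 CPM, and Trpm3 (−3.48), a gene strongly expressed in choroid plexus, and 1 of the 6 had passed only through CON and MAL libraries. In the same comparison neuron markers fell in 9 of 10 cases (3 of them passed the filter only through CON and MAL libraries) and choroid plexus markers in 9 of 9, and their part in these falls was not tested. Beside these counts, 11.4% of all genes tested were called as higher and 21.7% as lower against CON.

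Genes that act beside the channels, in 9 lists, moved in part. Over all genes tested, 11.4% were called as higher and 21.7% as lower against CON. No list was tested against these shares, so the counts do not show that a list moved more than other genes. Under microglia marker scaling none of the genes in these lists was called as higher against CON or MAL, although single values stayed above 0, such as that of Orai1 (0.42 against CON, adjusted p = 0.0225, edgeR). Of 10 nucleotide receptor and ATP release genes, 4 rose and 1 fell against CON, with a median of 0.41. Panx1, a channel that releases ATP, rose by 1.02 ± 0.19 SE (adjusted p = 6.27e-04, edgeR), and P2rx4, an ATP-gated cation channel, rose by 0.73 ± 0.19 SE (adjusted p = 0.00568). Adora1, an adenosine receptor, fell by 1.26 on the log2 scale. Of 9 NADPH oxidase genes, whose charge the proton channel balances, 2 rose and 0 fell, but 7 rose under mean log2 CPM scaling and 4 fell under microglia marker scaling. The 2 that rose under TMM scaling were Cyba, the membrane subunit p22phox (1.15 ± 0.19 SE, adjusted p = 2.68e-04, edgeR), and Vav1, an activator of Rac (0.83 ± 0.21 SE, adjusted p = 0.00408).

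Among 8 genes of the inflammasome that responds to potassium efflux, 0 rose and 3 fell against CON. Nlrp3, its sensor, went from 254 CPM in CON and 202 in MAL to 115 in MAL-BG (−1.14 ± 0.23 SE, adjusted p = 8.31e-04, edgeR), and Casp4 fell by 1.14. Under mean log2 CPM scaling these 2 fell against CON too (−0.85 and −0.86), but against MAL, where both were called under TMM scaling (−0.81 and −0.68), neither was called (−0.55 with adjusted p = 0.0606 and −0.42 with adjusted p = 0.0878, edgeR). Early response genes, which can move with cell isolation, fell too (5 of 8 against CON and 7 of 8 against MAL), and their part was not tested. Of 9 genes of ADP-ribose metabolism, which makes and clears the ligand of TRPM2, 2 rose and 1 fell. Nudt9, an ADP-ribose hydrolase, rose by 0.65 ± 0.11 SE (adjusted p = 2.78e-04), Bst1, an ADP-ribosyl cyclase, rose by 1.42 ± 0.43 SE (adjusted p = 0.0139), and Macrod1 fell by 0.81 on the log2 scale (−0.52 and not called under mean log2 CPM scaling). Of 8 regulators of KCa3.1, 0 were called against CON, and Trim27 rose against MAL (0.62 ± 0.11 SE, adjusted p = 3.78e-04, edgeR, or −0.18 and not called under microglia marker scaling). Its value against CON was 0.55 ± 0.12 SE (adjusted p = 0.00147, edgeR), under the fold threshold.

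Calcium entry genes split in direction, 3 rising and 2 falling of 9 against CON. Orai1, the pore of store-operated calcium entry, went from 89.6 to 214 CPM (1.26 ± 0.17 SE, adjusted p = 6.01e-05, edgeR) and Orai3 rose by 0.73, whereas Stim1, the sensor of the store, went from 64.5 to 35.5 CPM (−0.86 ± 0.29 SE, adjusted p = 0.0241, or −0.54 and adjusted p = 0.131 under mean log2 CPM scaling) and Tmem63b fell by 0.99. Of 14 tested anion channel genes, 3 rose and 4 fell, among them Clic1 (0.90), Ostm1 (0.78), Lrrc8b (−2.51), and Clcn5 (−1.35). Of 13 tested proton and bicarbonate transport genes, 5 rose and 3 fell, including the endosomal exchanger Slc9a9 (1.05), the bicarbonate cotransporter Slc4a7 (0.86), Slc4a8 (−1.89), and the anion exchanger Slc4a2 (−1.44). Of 11 sodium pump and potassium cotransport genes, 1 rose (Atp1b3, 0.58) and 4 fell, among them Slc12a5 (−2.35), the potassium chloride cotransporter of neurons, and Atp1b1 (−1.93). In MAL versus CON, edgeR called 0 genes of each of these lists.

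Finally, the genes whose pattern was most like each member were sought among genes with a mean of at least 10 CPM, by Pearson's r of log2 CPM over 16 libraries after the mean of each group was subtracted. These r are descriptions, since all genes share the libraries and their cell make-up. Kcnk13 was most like 4632428N05Rik (r = 0.94) and H2-DMa (0.93), and Kcnk6 most like Pag1 (0.96) and Git2 (0.94). Trpv2 was closest to Scamp2 and 1700017B05Rik (both 0.98), Hvcn1 to Rps6ka1 and Rab32 (both 0.97), and Trpm2 to Slc38a7 and Arhgap39 (both 0.97). Kcnj2 was nearest to Ercc5 (0.96) and Zmym6 (0.93), and Kcnn4 to Usp4 and Vps25 (both 0.94). Kcna5 was most like Igfbp3 (0.90) and Ttll7 (0.89). For Kcna3, which had few counts in MAL-BG, Phf11d is given (0.83).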

How the data were processed

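The 16 RNA-Seq libraries of CD11b+ cells came from CON (4), MAL (5), and MAL-BG (7) mice. Paired reads of poly(A) RNA, prepared with a stranded kit, had been mapped with STAR to GRCm38.p6 and summed over genes in HTSeq, and the authors deposited the raw counts without normalization. The HTSeq mode and gene annotation are not given in the sources used here. Columns gave group and running number but matched no title, so no batch term was fitted.

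Counts were analysed in R 4.3.3 with TMM scaling and the quasi-likelihood test of edgeR 4.0.16, all 3 groups in 1 fit. Benjamini-Hochberg adjustment ran over the 14565 genes tested. Log2 CPM used a prior count of 2. Exon lengths came from GENCODE vM21 and upstream sequences from RefSeq. Replicates differed by more than sampling noise. On simulated data, 200 of 14565 genes were changed by 1.5 on the log2 scale. Of these, 148 (MAL-BG versus CON), 149 (MAL-BG versus MAL), and 147 (MAL versus CON) were called. Among the unchanged genes, 6, 5, and 3 were called. Neither smaller changes nor a share of changed genes as large as in the data was simulated.

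The 9 genes and the lists were chosen with earlier results of these data known. From each list, up to 2 called genes per direction with the smallest adjusted p were named, and for each member the 2 genes most like it. A gene that this rule names is not reported here. The alternatives tried were other scalings, DESeq2 1.42.0, other filters, no fold threshold, the compared groups only, thinned libraries, offsets for length and GC content, and libraries left out.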

Additional observations from a re-analysis of the deposited data

How the results depend on the processing

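The counts of called members were recomputed under 30 alternatives. Against MAL, 4 members were called, and 7 were under scaling by mean log2 CPM and 7 with length and GC offsets added to it. Against CON, 5 members were called, and 2, both lower, under microglia marker scaling, which against MAL called 3, all lower (Kcna3, Kcna5, and Trpm2). With 1 library left out, the count ran from 4 to 7 against CON and was 4 in each case against MAL, and it was 0 in each case for MAL versus CON.

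Several members near 0 or near the marker shift changed direction on the log2 fold change scale. Under microglia marker scaling, values against CON were −0.31 for Kcnk6, −0.19 for Kcnj2, −0.40 for Hvcn1, and −0.0239 for Trpv2. Against MAL they were −0.40 for Kcnk6, −0.35 for Kcnj2, −0.0519 for Kcnn4, −0.39 for Hvcn1, and −0.0575 for Trpv2, and Hvcn1 had −0.00672 in MAL versus CON. Scaling by mean log2 CPM gave Kcna5 0.26 and 0.0703 and Trpm2 0.23 and 0.10 against CON and MAL. Length and GC offsets gave Trpm2 0.31 and 0.16, and with mean log2 CPM scaling they gave Trpm2 0.56 and 0.42 and Kcna5 0.13 against CON. Without CON 1 and MAL 4, an alternative chosen after seeing the data, Trpm2 was 0.53 against CON and Kcna3 0.0745 in MAL versus CON, and Kcnk6 and Hvcn1 were called against CON. Without MAL-BG 5 and 7, also chosen after seeing the data, Kcna5 was 0.20 and 0.0315, and Trpm2 0.0521 against CON. The cause of these turns was not tested.

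With 1 library left out, the range against CON was −0.41 to 0.34 for Kcna5 and −0.23 to 0.44 for Trpm2, and that against MAL was −0.48 to 0.0389 for Kcna5. In MAL versus CON the ranges were −0.0440 to 0.16 for Hvcn1, −0.17 to 0.57 for Kcna5, −0.00238 to 0.32 for Kcnk6, −0.0630 to 0.60 for Trpm2, and −0.0710 to 0.31 for Trpv2. Over all alternatives and single members, 735 values kept direction and side of the threshold, 45 turned direction, 25 passed the threshold newly, and 5 no longer passed it.

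No paired analysis was possible because the columns carry a group and a running number that match no sample title, so a number does not tie libraries across groups. Depth limits Kcna3, Kcna5, and Kcnn4 most, with 1 to 216 counts per library. Cell make-up was not measured apart from marker genes. Of 5 erythroid markers, the 4 hemoglobin genes were at 0 in every library. The remaining one, Alas2, was low, at 0.631 to 1.77 CPM in CON, 0.0851 to 1.29 in MAL, and 1.53 to 4.62 in MAL-BG. It was called higher in MAL-BG against CON and MAL (log2 fold changes 1.32 and 1.77).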
